A study of Mus musculus with 8 samples.

Results

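The genes described here encode the proteins of the mitochondrial ribosome. They are the 75 of 27962 gene names on the array that begin with Mrpl or Mrps followed by a digit. Of these, 46 are named for the large subunit (Mrpl) and 29 for the small subunit (Mrps). The split into subunits follows the symbol alone, and Mrps18a, Mrps30 and Mrps36 are described below as exceptions. All 75 were measured, with the signal of the probe in use well above background on all 8 arrays, and 17611 genes in all were tested. The rule uses the symbol and no measured value.

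Mitochondria keep their own ribosome, which translates the few messages of mitochondrial DNA into core subunits of the respiratory chain. Its ribosomal RNAs come from mitochondrial DNA, but all its proteins are encoded in the nucleus, translated in the cytosol and imported. The small subunit decodes the message and the large subunit joins amino acids and threads the new chain into the inner membrane. Dazl is an RNA-binding protein of germ cells that binds messages in the cytoplasm.

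The study precipitated Dazl with its RNA from testes of male mice of a mixed C57BL/6 and 129SV background at postnatal day 14. In all 4 groups, controls included, the germ cells expressed Dazl as the fusion Dazl-GFP-V5, and there was no group without it. What drives the fusion and whether animals were pooled is not given in the sources used here. The V5 group was a precipitate with an antibody against V5, the GFP group a precipitate with an antibody against GFP, the IgG group a mock precipitate with normal mouse IgG, and the input group total RNA. Lysates were not UV-crosslinked, and RNA of each group was labelled with Cy3 and measured on 2 one-colour arrays. The labels do not say that the 2 arrays of a group came from separate animals, so a p-value here covers only the spread between the arrays, and that spread may be technical.

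The 8 arrays had a 75th percentile of signal between 857 and 1115, between 57.2% and 62.2% of spots well above background, and 0 saturated spots. The labels conflict in places. The overall design speaks of PABP1 as a target that no sample carries, the samples having GFP instead. For input replicate 2 and V5 replicate 1 title and description name different kinds of RNA, and the titles were followed. The IgG and input arrays lay on slide 1 and the V5 and GFP arrays on slide 2. In every comparison of V5 or GFP with IgG or input, slide and precipitate therefore cannot be told apart. Dazl served as the check of the precipitates: its normalised signal (defined below) was 7.16 and 6.53 on the V5 arrays, 10.4 and 9.11 on the GFP arrays, 4.02 and 2.99 on the IgG arrays and 14.2 and 15.0 on the input arrays. It was higher than in IgG with V5 (log2 fold change 0.98 ± 0.15 SE, limma adjusted p = 0.00405) and with GFP (1.49 ± 0.15, adjusted p = 0.00037). The labels speak of germ cells, and all 8 germ cell markers lay above background on every array, with a summed normalised signal of 261 to 274 in V5, 265 to 277 in GFP, 258 to 297 in IgG and 312 to 317 in input. Against IgG 6 of these 8, a list that includes Dazl, were called higher and 1 lower with each antibody. Of all genes tested 16.7% were called higher and 40.3% lower with V5, and 21.6% higher and 52.1% lower with GFP. All 12 Sertoli cell markers were above background too, summing to 290 to 300 in V5, 256 to 262 in GFP, 373 to 375 in IgG and 444 to 457 in input. The sums for 6 of 6 myoid markers were 22.8 to 25.3 in V5, 19.0 to 19.97 in GFP, 32.7 to 38.0 in IgG and 75.7 to 78.0 in input. For 8 of 9 leukocyte markers they were 16.5 to 18 in V5, 13.3 to 14.2 in GFP, 20.7 to 24.1 in IgG and 31.5 to 31.6 in input. For 5 of 6 Leydig markers they were 19.7 to 20.5 in V5, 16.9 to 19.8 in GFP, 26.5 to 28.6 in IgG and 24.7 to 25.3 in input, and for 7 endothelial markers 1.47 to 1.55, 1.35 to 1.36, 2.0 to 2.18 and 1.88 to 1.96 in the same 4 groups. All these sums other than the germ cell one were lower in V5 and GFP than in IgG. No marker was at 0, but not all lay above background. Of the 7 endothelial markers 6 did on both arrays of V5, of GFP and of IgG, and 7 in input. Of the 8 leukocyte markers 7 did in IgG and 8 in the other groups. The part of these cells in the results below was not tested. In such mixed samples fewer cells of a type and less RNA per cell cannot be told apart.

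Signals are given as normalised signal, the processed signal of the probe divided by the 75th percentile of its array. Differences are log2 fold changes ± SE from limma over all 8 arrays, and a gene was called where its p-value, adjusted over all 17611 genes, was under 0.05. Probes differ in brightness, so a level is only set against the same probe on other arrays. Between the 2 arrays of a group the median absolute log2 difference over the 75 genes was 0.074 in V5, 0.056 in GFP, 0.098 in IgG and 0.071 in input. Among the 75 genes the mean normalised signal ran between 0.402 and 57.1 in V5, between 0.406 and 49.8 in GFP, between 0.480 and 65.7 in IgG, and between 0.525 and 46.6 in input.

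Scaling sets the zero of every comparison. With the 75th percentile as the scale, the median of all genes lay at -0.21 in V5 against IgG and at -0.33 in GFP against IgG. Scaled to the spike-in probes of the array, the same medians were 0.16 and 0.15. For IgG against input the median of all genes was 0.22 on the first scale and -0.58 on the spike-in scale. A call of lower against IgG therefore depends on the scale, here the 75th percentile of each array. It does not by itself place a gene below the bulk of the transcripts. With GFP 48 of the 75 genes were called lower than IgG, while 37 lay below the median of all genes. For the highest genes against IgG and some of the lowest, the difference from the median of all genes is also given. Scaling hardly moves that difference.

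Most mitochondrial ribosomal protein messages were not called higher with Dazl than in the mock, and a small group was. With V5, 9 of the 75 genes were called higher and 32 lower than in IgG, where 57% of all genes tested were called, 16.7% higher and 40.3% lower. With GFP, 11 genes were called higher and 48 lower, where 73.7% of all genes were called, 21.6% higher and 52.1% lower. The median of the 75 genes was -0.16 with V5 and -0.32 with GFP, beside -0.21 and -0.33 for all genes, and 34 and 37 of the 75 lay below the median of all genes. The median of the 75 genes thus lay close to that of all genes in the reported fit. With another background correction (normexp) the medians were -0.23 with V5 and -0.36 with GFP, beside -0.08 and -0.17 for all genes. There 54 and 52 of the 75 lay below the median of all genes. On the spike-in scale the counts were 26 higher and 0 lower with V5 and 27 higher and 0 lower with GFP, and the medians turned to 0.20 and 0.16. Of all calls across the array 29.3% were higher in both comparisons with the 75th percentile, and 87.0% (V5) and 76.7% (GFP) on the spike-in scale. Both comparisons share the same 2 IgG arrays, so they are not independent of each other.

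**Figure D1:**
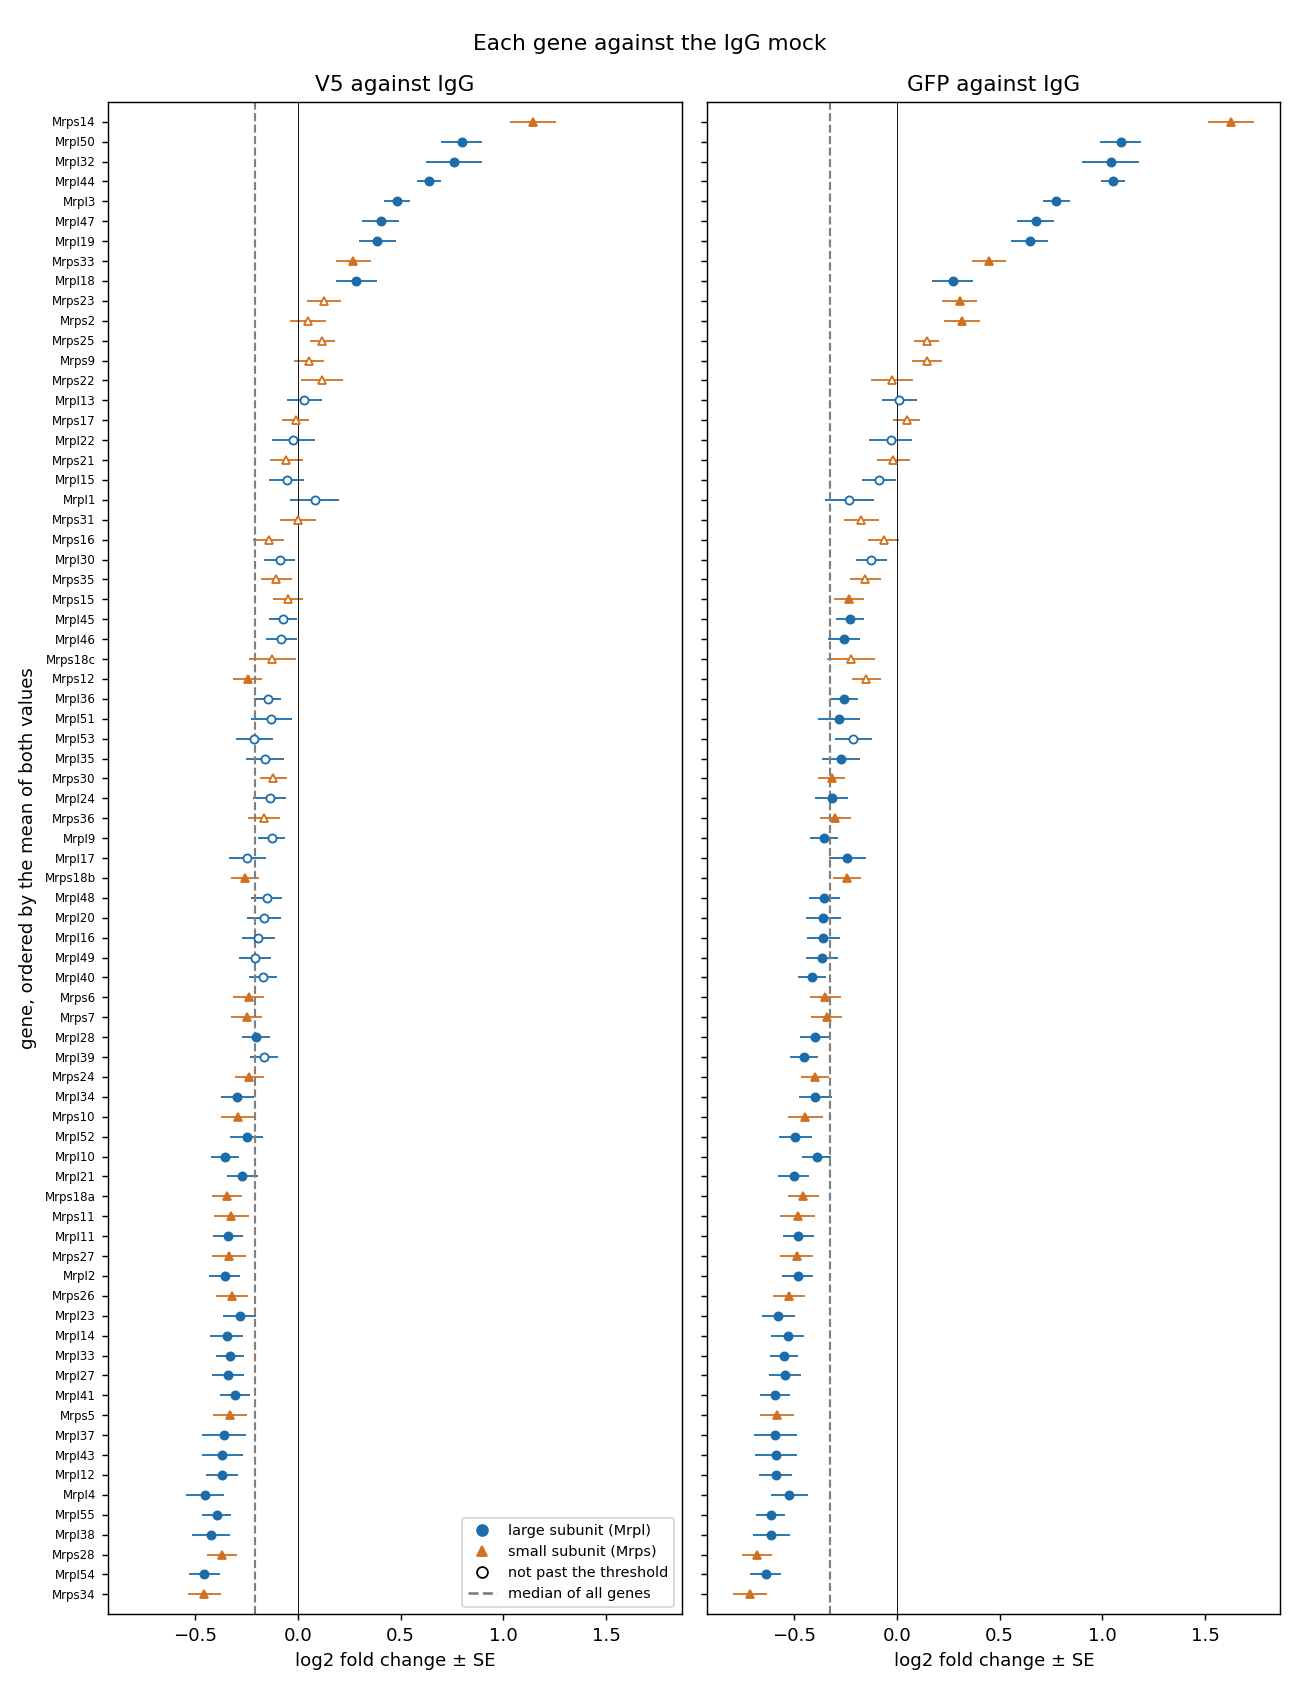
Log2 fold change ± SE of each of the 75 genes in V5 against IgG (left) and GFP against IgG (right), ordered by the mean of both values. Circles are large subunit genes and triangles small subunit genes, filled where the adjusted p is under 0.05, and the dashed line is the median of all genes (-0.21 and -0.33). Mrps14 lies highest in both panels; on the spike-in scale the dashed lines move to 0.16 and 0.15 and no gene is called lower.

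Mrps14, the counterpart of a bacterial small subunit protein, had the highest value of the 75 genes with both antibodies. Its normalised signal was 6.20 and 5.85 on the V5 arrays, 8.57 and 8.28 on the GFP arrays, 3.05 and 2.44 on the IgG arrays and 3.02 and 2.88 on the input arrays. Both antibodies lay above both controls with no overlap, GFP lay above V5, and IgG and input overlapped. Against IgG it was 2.21-fold higher with V5 (log2 1.14 ± 0.11, adjusted p = 0.00135) and 3.09-fold higher with GFP (log2 1.63 ± 0.11, adjusted p = 0.00014). Relative to the median of all genes these were 1.35 and 1.95 on the log2 scale. Both calls stood on the spike-in scale, at 1.5 and 2.10. Mrps14 was also higher than input with V5 (log2 1.03 ± 0.11, adjusted p = 0.000239) and with GFP (1.51 ± 0.11, adjusted p = 4.09e-05). It rested on 1 probe.

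Large subunit genes made up the rest of the 5 highest with each antibody. Mrpl50, a protein found only in mitochondrial ribosomes, gave 4.43 and 4.05 on the V5 arrays, 5.46 and 4.92 on the GFP arrays, 2.62 and 2.27 on the IgG arrays and 4.32 and 4.37 on the input arrays. It was 1.74-fold higher than IgG with V5 (adjusted p = 0.00235) and 2.13-fold higher with GFP (adjusted p = 0.000282), or 1.0 and 1.41 on the log2 scale relative to the median of all genes. The IgG arrays were the low ones, below input by 0.83 on the log2 scale (adjusted p = 0.000301): V5 overlapped with input, and Mrpl50 was called different from input with neither V5 (log2 -0.04 ± 0.10) nor GFP (0.25 ± 0.10).

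Mrpl32, whose protein is matured by the m-AAA protease of the inner membrane before it joins the ribosome, showed the same order. Its signal was 2.75 and 2.55 on the V5 arrays, 3.44 and 3.02 on the GFP arrays, 1.79 and 1.37 on the IgG arrays and 2.57 and 2.58 on the input arrays. The difference from IgG was 0.76 ± 0.14 with V5 (adjusted p = 0.00619) and 1.04 ± 0.14 with GFP (adjusted p = 0.000821), which was 0.97 and 1.37 relative to the median of all genes, while against input the values were 0.04 ± 0.14 and 0.32 ± 0.14, and neither was called. IgG itself was lower than input by 0.72 on the log2 scale (adjusted p = 0.003).

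Mrpl44, which has a fold related to RNase III, stood above both controls by the probe that represents it. Its signal was 5.43 and 5.33 on the V5 arrays, 7.14 and 7.18 on the GFP arrays, 3.45 and 3.46 on the IgG arrays and 4.03 and 4.11 on the input arrays. No 2 groups overlapped, and GFP was highest and IgG lowest. Against IgG it was 1.56-fold higher with V5 (adjusted p = 0.00118) and 2.07-fold higher with GFP (adjusted p = 9.57e-05), or 0.84 and 1.38 on the log2 scale relative to the median of all genes. Against input it was higher by 0.40 ± 0.06 with V5 (adjusted p = 0.000937) and by 0.81 ± 0.06 with GFP (adjusted p = 3.76e-05), but on the spike-in scale the V5 value was -0.03 and not called. Its other probes did not stand above input: they were at -0.24, not called, and -0.49, called, with V5, and at 0.17 and 0.02, neither called, with GFP.

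Mrpl3, a counterpart of a bacterial large subunit protein near the peptidyl transferase centre, gave 21.1 and 20.7 on the V5 arrays, 25.9 and 25.4 on the GFP arrays, 15.5 and 14.5 on the IgG arrays and 19.6 and 19.3 on the input arrays. The 4 groups did not overlap, with GFP first, then V5, input and IgG. Against input the V5 value was only 0.10 and not called. The 4 probes of Mrpl3 ranged from -0.37 to 0.10 in that comparison. It was higher than IgG by 0.48 ± 0.07 with V5 (adjusted p = 0.00298) and by 0.78 ± 0.07 with GFP (adjusted p = 0.000232), which was 0.69 and 1.10 relative to the median of all genes. IgG was lower than input by 0.38 on the log2 scale (adjusted p = 0.00182). These values, with those of Mrps14, Mrpl50, Mrpl32 and Mrpl44, are plotted by array.

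**Figure D2:**
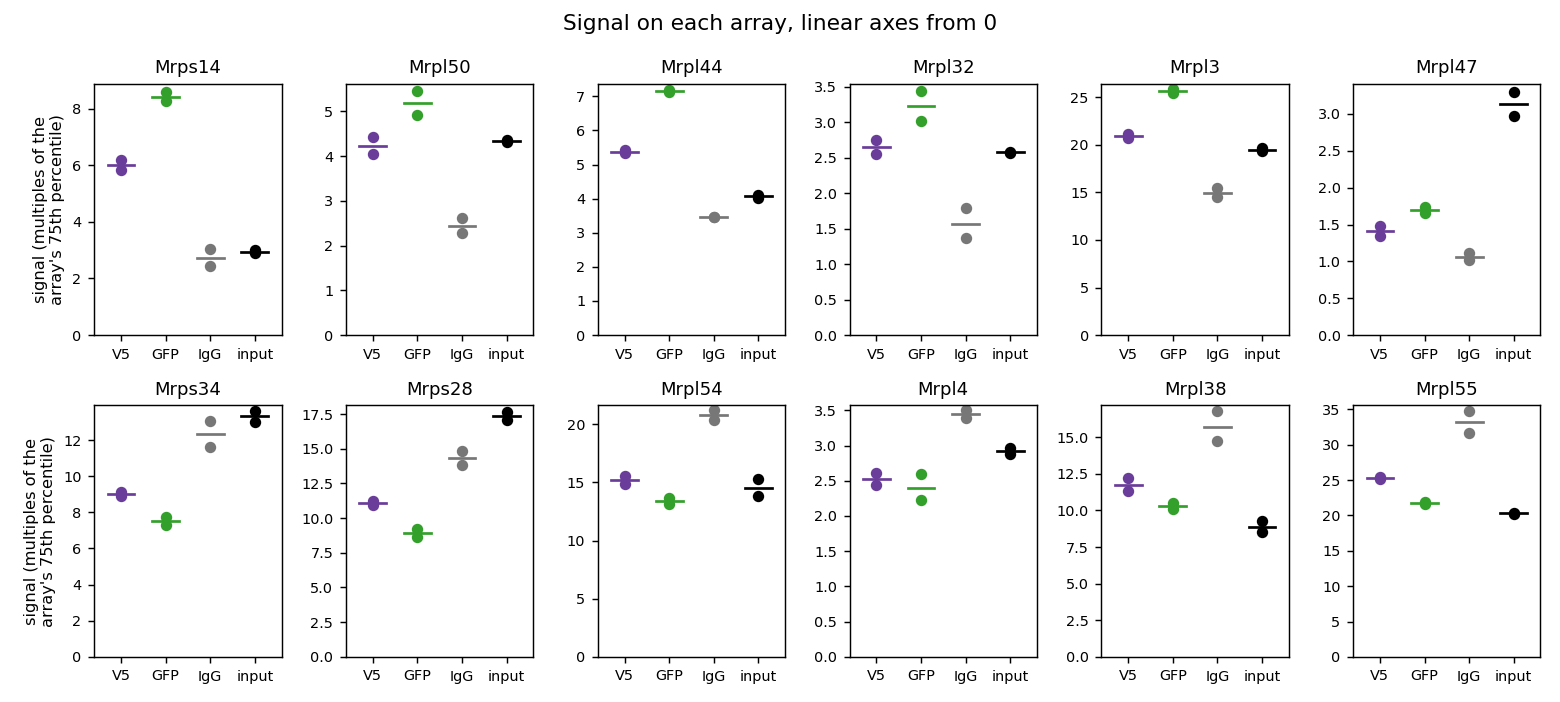
Normalised signal (multiples of the array's 75th percentile, linear axes from 0) of 12 genes on each array; points are arrays and lines the geometric mean of 2. In the top row V5 and GFP lie above IgG. For Mrps14, Mrpl44 and Mrpl3 both also lie above input with these probes, for Mrpl3 with V5 by only 0.10, not called. In the bottom row V5 and GFP lie below IgG, an order that on the spike-in scale is called for none of these 6 genes.

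The other genes called higher against IgG, named here after their values were seen, were Mrpl47, Mrpl19, Mrps33 and Mrpl18 with V5, and these with Mrps23 and Mrps2 with GFP. Mrpl47, the counterpart of a bacterial protein near the mouth of the exit tunnel, was at 0.40 ± 0.09 with V5 and 0.68 ± 0.09 with GFP, and Mrpl19 at 0.39 ± 0.09 and 0.65 ± 0.09. Against input Mrpl47 was called lower with V5 (-1.15) and with GFP (-0.88), and the mock was lower still (-1.56). The mock was also lower than input for Mrpl19 (-0.38), Mrps23 (-0.47) and Mrps33 (-0.29), not called for Mrpl18 (0.02) and higher for Mrps2 (0.33). Mrps33 was at 0.27 ± 0.08 and 0.45 ± 0.08, and Mrpl18 at 0.28 ± 0.10 and 0.27 ± 0.10. Mrps23 and Mrps2, both of the small subunit, were at 0.31 ± 0.08 and 0.32 ± 0.09 with GFP, and at 0.13 and 0.05 with V5, which were not called. Leaving out V5 replicate 1 ended the V5 calls of Mrpl19 and Mrpl47, and the calls of Mrpl18 with both antibodies were lost in 7 of 8 leave-one-out fits.

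The upstream sequences of Mrpl3 and Mrpl32 are shown because both genes rose with both antibodies and hold motifs common in promoters of housekeeping and mitochondrial genes. They are from RefSeq (GRCm38.p6), 5′ to 3′, and end at the base before the annotated start; capitals mark the motifs. The Mrpl3 stretch lies at chr9:105053168-105053267 on the + strand and holds CCGGAAGT, a letter match to the ETS motif. The Mrpl32 stretch lies at chr13:14613038-14613287 on the - strand and holds the reverse complement of AAGATGGC (YY1) and, nearer the start, the 10-base NRF1 motif.
Mrpl3: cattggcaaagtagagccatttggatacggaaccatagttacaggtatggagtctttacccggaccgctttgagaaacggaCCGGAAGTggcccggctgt
Mrpl32: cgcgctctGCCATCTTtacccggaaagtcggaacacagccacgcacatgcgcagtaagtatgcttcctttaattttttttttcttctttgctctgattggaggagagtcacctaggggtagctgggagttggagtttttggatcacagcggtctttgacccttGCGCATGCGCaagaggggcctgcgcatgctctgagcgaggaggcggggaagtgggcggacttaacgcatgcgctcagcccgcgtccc

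RefSeq gave 72 promoter windows for 66 of the 75 genes, each 250 bases before and 50 after the start, and 4 motifs were searched on both strands. CCGGAAGT was in 16.7% of the 72 windows and 3.89% of all 32851 windows. AAGATGGC was in 15.3% and 2.75%, and the NRF1 motif in the letters shown for Mrpl32 in 4.17% and 0.971%. TATAAA was in 6.94% of the windows of these genes and 13.6% of all. The CCGGAAGT match was shared by genes that moved in opposite directions against IgG, among them Mrpl3 and Mrpl18 on the higher side and Mrpl33, Mrpl27 and Mrps26 on the lower, and AAGATGGC by Mrpl32 (higher) and Mrpl37, Mrps24 and Mrps11 (lower). None of these was called lower on the spike-in scale.

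The genes lowest against IgG differed from it by less than the highest ones did. With V5 the 5 lowest were Mrpl54, Mrps34, Mrpl4, Mrpl38 and Mrpl55, all between -0.45 and -0.39. Mrpl54, which has no bacterial counterpart, gave 15.5 and 14.8 on the V5 arrays, 13.6 and 13.2 on the GFP arrays, 21.2 and 20.4 on the IgG arrays and 13.8 and 15.3 on the input arrays. The IgG arrays were the high ones, and V5 overlapped with input. Mrpl54 was lower than IgG by 0.45 with V5 (adjusted p = 0.00498) and by 0.64 with GFP (adjusted p = 0.000578) on the log2 scale, which was -0.25 and -0.31 relative to the median of all genes.

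Mrps34, another protein specific to mitochondria, gave 9.1 and 8.90 on the V5 arrays, 7.73 and 7.32 on the GFP arrays, 11.6 and 13.1 on the IgG arrays and 13 and 13.6 on the input arrays. Here both precipitates lay below both controls, which overlapped with each other. It fell by 0.45 on the log2 scale with V5 against IgG (adjusted p = 0.00584) and by 0.71 with GFP (adjusted p = 0.000499), the lowest GFP value of the 75 genes. Scaled to the spike-ins the values were -0.09 and -0.24, and neither was called; relative to the median of all genes they were -0.25 and -0.39.

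Mrps28, of the small subunit, showed the same order, with 11.2 and 11 on the V5 arrays, 9.25 and 8.64 on the GFP arrays, 14.8 and 13.8 on the IgG arrays and 17.1 and 17.7 on the input arrays. None of its 4 groups overlapped. It fell by 0.37 with V5 and by 0.68 with GFP against IgG on the log2 scale (-0.16 and -0.35 relative to the median of all genes), and by 0.65 and 0.96 against input. Against IgG the values were not called on the spike-in scale (-0.00 and -0.20), while against input they were, at -1.08 and -1.28.

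Mrpl4, which lies at the exit tunnel, was lower than IgG by 0.45 with V5 and by 0.52 with GFP on the log2 scale. Mrpl38, of the central protuberance, and Mrpl55 were higher in IgG than in input. Mrpl38 gave 12.2 and 11.3 on the V5 arrays, 10.1 and 10.5 on the GFP arrays, 14.7 and 16.8 on the IgG arrays and 8.53 and 9.29 on the input arrays. Each precipitate lay between the 2 controls. It was lower than IgG with V5 (-0.42 ± 0.09) and higher than input (0.40 ± 0.09, adjusted p = 0.00687); the spike-in scale put the value against input at -0.03, not called. Mrpl55 gave 25.4 and 25.1 on the V5 arrays, 21.6 and 21.8 on the GFP arrays, 34.8 and 31.7 on the IgG arrays and 20.2 and 20.4 on the input arrays, and again both precipitates lay between the controls.

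Among the 75 genes the V5 calls rested on single arrays more than the GFP calls did. Of the 41 V5 calls, 13 stood in all 8 fits that left out 1 array, beside 46 of 59 with GFP. The 32 lower and 9 higher calls with V5 became fewer when either V5 array was dropped, and when the second IgG array was. Calls over all genes became fewer in the same fits, so the loss was not confined to the 75 genes. The median of the 75 genes, -0.16 in the reported fit, was -0.15 with V5 replicate 2 dropped, beside -0.20 for all genes. It was -0.19 with V5 replicate 1 dropped, beside -0.20, and -0.21 with IgG replicate 2 dropped, beside -0.18. Without the 2 arrays whose descriptions conflict with their titles, V5 against IgG gave 2 higher and 0 lower calls, where 1251 of all 17611 genes were called. At an unadjusted p under 0.05 44 of the 75 passed in the reported fit, where 63.4% of all genes did. With another background correction (normexp) V5 against IgG gave 0 calls by limma, over all genes too, and 13 of the 75 and 3693 of all 17611 genes had an unadjusted p under 0.05. GFP against IgG gave 6 higher and 3 lower with that correction, where 3220 of all genes were called. The calls of Mrps14, Mrpl50, Mrpl32, Mrpl44 and Mrpl3 stood in every leave-one-out fit with both antibodies.

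Large and small subunit genes are set beside all genes, of which 16.7% were called higher and 40.3% lower with V5 and 21.6% higher and 52.1% lower with GFP. With V5 against IgG, 7 large subunit genes of 46 were higher (15.2%) and 19 lower (41.3%, median -0.18), and 2 small subunit genes of 29 were higher (6.90%) and 13 lower (44.8%, median -0.14). With GFP, 7 large subunit genes were higher (15.2%) and 33 lower (71.7%, median -0.36), and 4 small subunit genes were higher (13.8%) and 15 lower (51.7%, median -0.23). Scaled to the spike-ins, no gene of either subunit was called lower. Genes are not replicates, so no test was made of the difference between subunits.

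Structures of the mammalian ribosome place Mrps18a and Mrps30 in the large subunit in spite of their symbols, and Mrps36 is now regarded as a part of the oxoglutarate dehydrogenase complex. Mrps18a gave 5.46 and 5.06 on the V5 arrays, 4.82 and 4.93 on the GFP arrays, 6.86 and 6.49 on the IgG arrays and 5.86 and 6.22 on the input arrays. It was called lower than IgG with V5 (-0.34 ± 0.07) and GFP (-0.45 ± 0.07), and both precipitates lay below both controls. Mrps30 was at -0.12 with V5, not called, and at -0.32 with GFP, called. Mrps36 was at -0.16 with V5, not called, and at -0.30 with GFP, called. None of these 3 genes was called lower against IgG on the spike-in scale, where Mrps30 was called higher with V5 (0.24). With Mrps18a and Mrps30 counted in the large subunit and Mrps36 left out, the GFP medians were -0.36 for 48 large and -0.20 for 26 small subunit genes.

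**Figure D3:**
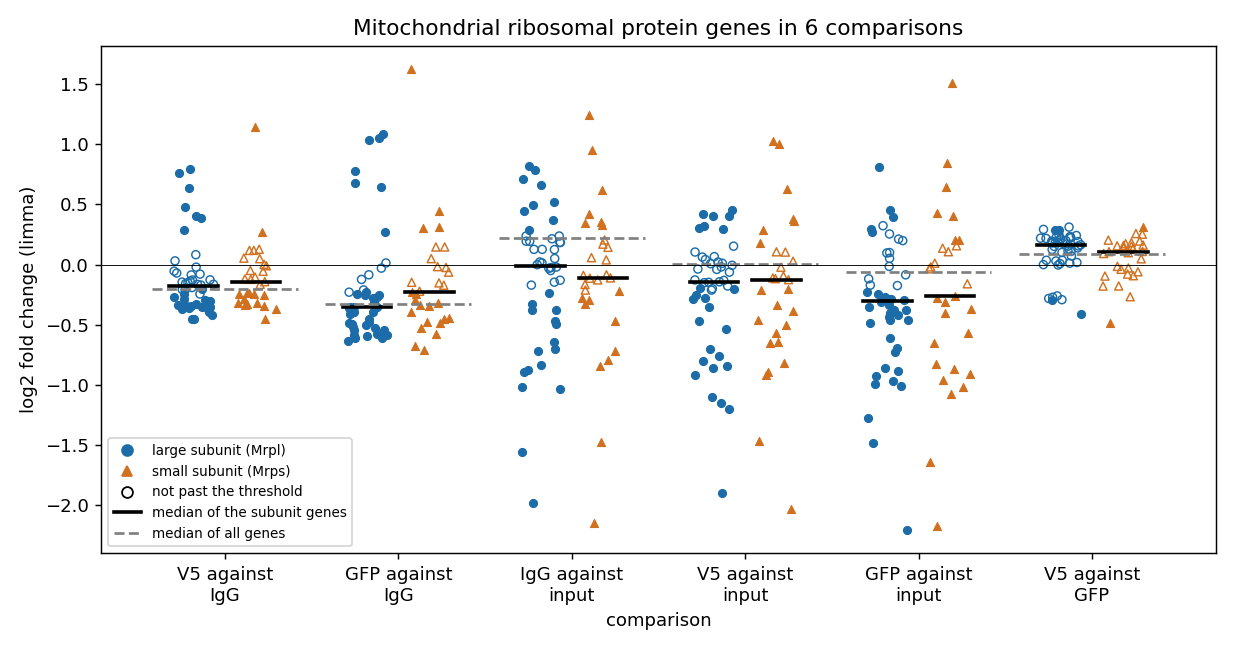
Log2 fold change of each gene in the 6 comparisons, large subunit genes as circles and small subunit genes as triangles, filled where the adjusted p is under 0.05; bars are subunit medians and dashed lines the median of all genes. Values spread widest against input, between -2.21 and 1.51, and least in V5 against GFP, between -0.48 and 0.31; the spike-in scale moves all genes of a comparison together and turns the medians against IgG above 0.

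The mock precipitate itself differed from the input in many of these genes. In IgG against input, which lies within slide 1, 16 genes were higher and 26 lower, where 73.2% of all genes were called, 43.9% higher and 29.3% lower. The median of the 75 genes was -0.03 and that of all genes 0.22, and 57 of the 75 lay below the median of all genes. On the spike-in scale 1 gene was higher and 68 lower, and over all genes the share of calls that were higher was 17.5% on that scale and 60.0% with the 75th percentile.

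Mrps22, a small subunit protein without a bacterial counterpart, had the lowest value. It gave 1.14 and 0.943 on the IgG arrays and 4.54 and 4.67 on the input arrays, and 1.09 and 1.16 on the V5 arrays and 1.05 and 0.989 on the GFP arrays. All 6 precipitate arrays lay far below input, and the IgG arrays overlapped with both V5 and GFP. The IgG level was 4.45-fold lower than input (log2 -2.15 ± 0.10, adjusted p = 1.2e-05). Mrpl1, of the L1 stalk, was 3.94-fold lower, at 0.755 and 0.591 on the IgG arrays and 2.68 and 2.59 on the input arrays. Mrpl47 (-1.56), Mrps31 (-1.47) and Mrpl39 (-1.03) followed. The 3 probes of Mrpl1 ranged from -2.59 to -1.12 on the log2 scale, and the 2 kept probes of Mrpl47 from -1.56 to -0.79. Mrpl47 and Mrpl39 are large subunit genes and Mrps31 a small subunit gene.

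On the other side Mrps24 gave 13.6 and 13.3 on the IgG arrays and 5.53 and 5.89 on the input arrays, 2.36-fold higher in IgG (log2 1.24 ± 0.07, adjusted p = 1.7e-05), and it was the 1 gene still called higher on the spike-in scale (0.44). Mrps26 (0.95), Mrpl38 (0.82), Mrpl12 (0.79) and Mrpl55 (0.71) were next. Mrpl12, a stalk protein that also binds the mitochondrial RNA polymerase, gave 24.6 and 25.3 on the IgG arrays and 13.7 and 15.3 on the input arrays, with no overlap. Mrps26, Mrpl38, Mrpl12 and Mrpl55 were not called on the spike-in scale, at 0.15, 0.02, -0.0095 and -0.085.

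Against input, the V5 and GFP precipitates are set beside the mock, with which they share the input arrays. With V5, 14 genes were higher and 32 lower than input, where 73.2% of all genes were called, 37.6% higher and 35.5% lower. With GFP, 12 were higher and 44 lower, where 75.2% of all genes were called, 36.1% higher and 39.1% lower. The medians were -0.14 and -0.28, beside 0.01 and -0.06 for all genes. Scaled to the spike-ins, 2 genes were higher with V5 (Mrps14 and Mrps24) and 4 with GFP (Mrps14, Mrpl44, Mrps2 and Mrps24), with 61 and 56 lower. The share of all calls that were higher was 51.5% with V5 and 48.0% with GFP, and 26.1% and 30.9% on the spike-in scale.

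The lowest values against input were those of Mrps22 (-2.03 with V5 and -2.18 with GFP), Mrpl1 (-1.90 and -2.21), Mrps31 (-1.47 and -1.64) and Mrpl39 (-1.20 and -1.48). Mrpl47 followed with V5 (-1.15) and Mrpl46 with GFP (-1.27). The 3 probes of Mrpl1 ranged from -2.21 to -0.43 with V5 and from -2.41 to 0.08 with GFP. The 2 kept probes of Mrpl47 ranged from -1.15 to -0.44 with V5. The highest were Mrps14, given above, and Mrps24, at 1.01 with V5 and 0.84 with GFP. Mrps24 was lower than IgG with both antibodies (-0.23 and -0.40), so its precipitate levels, 11.6 and 11.3 in V5 and 9.92 and 10.6 in GFP, lay between those of the controls. Mrps26 and Mrpl53 were at 0.63 and 0.45 with V5, and Mrpl12 at 0.42. Mrpl53 was at 0.45 with GFP, and Mrps2, a counterpart of a bacterial small subunit protein, at 0.64.

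Few of these genes were called different between the 2 antibodies to the same fusion. In V5 against GFP, which lies within slide 2, 3 genes were called higher and 3 lower, where 13.9% of all genes were called, 6.75% higher and 7.17% lower. At an unadjusted p under 0.05 there were 27 of the 75, where 38.3% of all genes passed. The median was 0.14, beside 0.09 for all genes. Mrps14 (-0.48 ± 0.11), Mrpl44 (-0.41 ± 0.06) and Mrpl3 (-0.29 ± 0.07) were lower with V5 than with GFP, and Mrps28 (0.31 ± 0.07), Mrpl39 (0.29 ± 0.07) and Mrpl41 (0.29 ± 0.07) higher, at adjusted p between 0.0282 and 0.0465. The first 3 are among the genes most above IgG with both antibodies, and the last 3 were below IgG with GFP. Mrpl41, which has been linked to p53 and cell death, gave 14.6 and 14.3 on the V5 arrays, 11.7 and 12.1 on the GFP arrays, 18.6 and 17.2 on the IgG arrays and 16.0 and 16.7 on the input arrays. Its 4 groups did not overlap. None of the 6 calls stood in all 8 leave-one-out fits, and on the spike-in scale 0 genes were higher and 4 lower, where 8.36% of all calls were higher against 48.5% with the 75th percentile.

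A few further genes were named for the roles of their proteins. Mrpl2, near the peptidyl transferase centre, gave 4.69 and 4.73 on the V5 arrays, 4.40 and 4.24 on the GFP arrays, 6.22 and 5.85 on the IgG arrays and 5.75 and 6.34 on the input arrays, and was lower than IgG by 0.36 and 0.48 on the log2 scale. Both precipitates lay below both controls, and IgG and input overlapped. Mrpl11, of the stalk base, was lower by 0.34 and 0.48, and Mrpl12 by 0.37 and 0.59. Mrps7 was lower by 0.25 with V5 and 0.34 with GFP. Mrps12, of the decoding centre, gave 10.3 and 9.49 on the V5 arrays, 10.4 and 10.8 on the GFP arrays, 11.6 and 11.8 on the IgG arrays and 9.0 and 9.37 on the input arrays. Both precipitates lay between the 2 controls. It was called lower than IgG with V5 (-0.24 ± 0.07) but not with GFP (-0.15 ± 0.07). Mrps18b was lower by 0.26 and 0.24. None of these 6 genes was called lower against IgG on the spike-in scale, and Mrps12 was called higher with GFP (0.33).

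Named by the same rule for their signal on the input arrays were Mrpl33, Mrpl20 and Mrpl28, at the bright end, and Mrpl9 and Mrps27 with Mrps18b at the dim end. Mrpl33 was at -0.33 with V5 and -0.55 with GFP against IgG, Mrpl28 at -0.20 and -0.40, and Mrps27 at -0.33 and -0.49, all called. The V5 call of Mrpl28 was lost in each of the 8 leave-one-out fits, and that of Mrps27 without V5 replicate 1. Mrpl20 was at -0.16 and -0.36 and Mrpl9 at -0.13 and -0.35, called with GFP only by its own test, since the difference between the antibodies was not called for either.

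Of the 75 genes, 33 had several probes on the array and 29 had several that passed the filter on dim probes, 72 probes in all. Within these genes the probes differed little against IgG, with a median range of 0.12 with V5 and 0.15 with GFP on the log2 scale, and more against input, with 0.51 and 0.46. All 4 probes of Mrpl3 were higher than IgG with both antibodies, between 0.22 and 0.48 with V5 and between 0.62 and 0.95 with GFP, and each was called. All 3 probes of Mrpl44, each listed under a cDNA clone, were too, between 0.44 and 0.64 and between 0.85 and 1.05, as were both of Mrpl47. The other probe of Mrpl50 was at 0.33 with V5, not called, and 0.67 with GFP, called.

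Against IgG probes were called in opposite directions for 1 gene with V5 and 3 with GFP. Mrps5 had 3 probes to its RefSeq transcript at -0.33, -0.33 and -0.17 with V5 and at -0.58, -0.43 and -0.49 with GFP, while a probe listed under a cDNA clone was at 0.68 and 1.16. Mrpl35 had RefSeq probes at 0.57 and -0.27 with GFP, and Mrps2 at 0.32 and -0.60, so the GFP call of Mrps2 as higher depends on which probe stands for it. With V5 these Mrps2 probes were at 0.05 and -0.62, the second called. The third Mrps2 probe, listed under a cDNA clone, was at -1.23 with V5 and -1.98 with GFP, neither called. A probe of Mrpl1 was at 0.70 with V5 and 1.21 with GFP, both called, where the probe used above was at 0.08 and -0.23. Against input opposite calls were more frequent, for 10 of the 29 genes with V5 and 8 with GFP. They included Mrps15, Mrps18b, Mrps30 and Mrps5 with both antibodies, whose clone-listed probes were between 0.75 and 1.59 where their RefSeq probes lay between -1.08 and -0.21. Mrpl18, Mrpl28, Mrpl44, Mrps2, Mrps25 and Mrps33 with V5 and Mrpl18, Mrpl35, Mrpl52 and Mrps2 with GFP completed them.

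**Figure D4:**
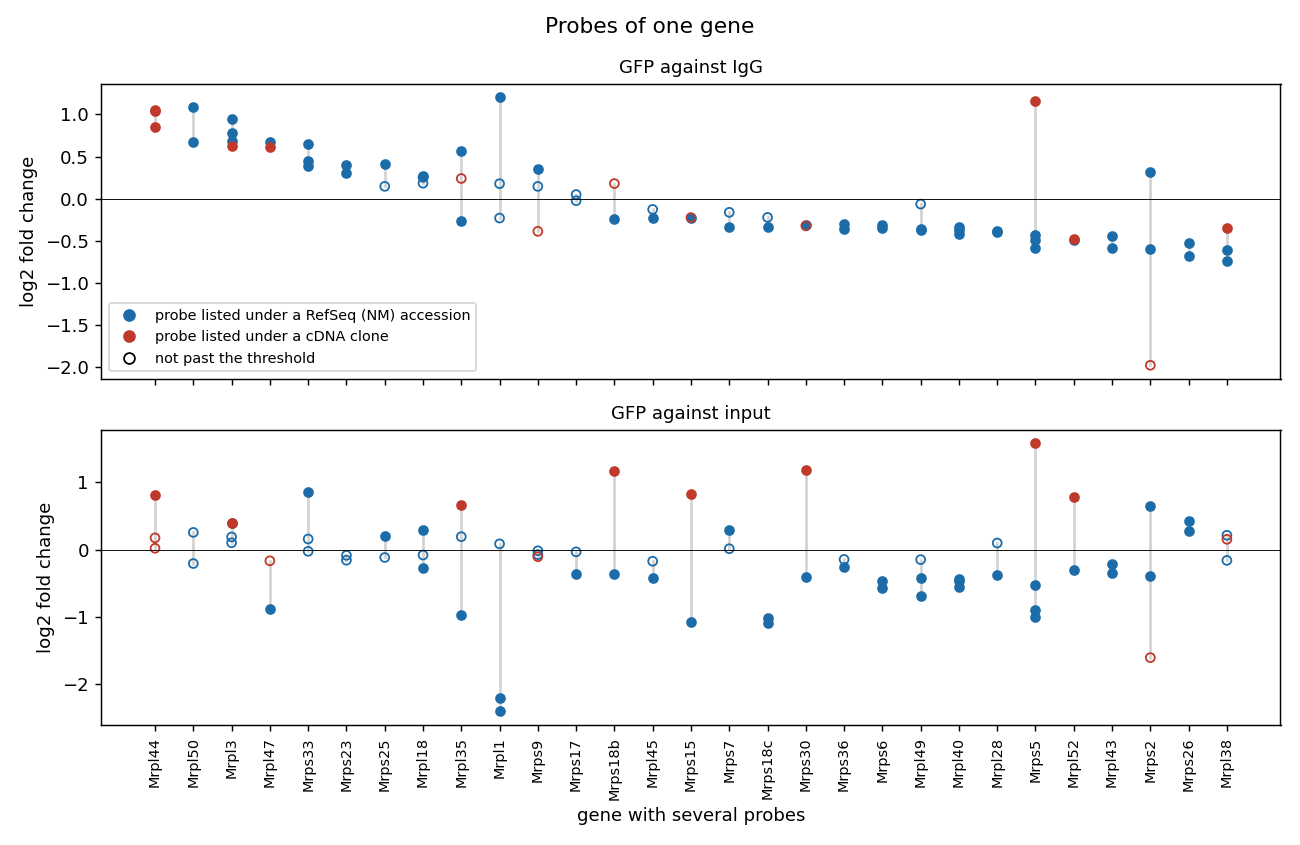
Log2 fold change of each of the 72 probes of the 29 genes with several kept probes, GFP against IgG (top) and GFP against input (bottom), coloured by the kind of accession the array lists and filled where the adjusted p is under 0.05. Against IgG most genes' probes lie together, with a median range of 0.15; against input the median range is 0.46 and 8 genes have probes called in opposite directions.

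Other genes of mitochondrial translation were read from lists of their own. Of all genes, 16.7% were called higher and 40.3% lower with V5, and 21.6% higher and 52.1% lower with GFP. The medians of all genes were -0.21 and -0.33. The 6 mitoribosomal proteins with other names gave 0 higher and 4 lower with V5 (median -0.38) and 0 higher and 5 lower with GFP (median -0.61) against IgG. Gadd45gip1, a large subunit protein also known as Crif1, gave 9.63 and 9.09 on the V5 arrays, 6.99 and 6.84 on the GFP arrays, 13.9 and 13.3 on the IgG arrays and 14.1 and 15.2 on the input arrays. Both precipitates lay below both controls, and it was lower than IgG by 0.54 with V5 (adjusted p = 0.00288) and by 0.98 with GFP (adjusted p = 0.00017) on the log2 scale. Mrp63 (-0.41 and -0.62) and Aurkaip1 (-0.38 and -0.60) were lower too.

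The 11 translation factors gave 0 higher and 4 lower with V5 (median -0.15) and 0 higher and 8 lower with GFP (median -0.39), led by Tufm, the elongation factor that carries aminoacyl-tRNA (-0.48 and -0.67), and Oxa1l, the insertase of the inner membrane (-0.41 and -0.66). The 18 assembly and RNA maturation factors gave 1 higher and 9 lower with V5 (median -0.20) and 1 higher and 13 lower with GFP (median -0.30). The 1 higher gene was Grsf1, an RNA-binding protein of mitochondrial RNA granules, at 0.37 ± 0.09 and 0.62 ± 0.09. Both precipitates of Grsf1 lay below input. Its signal was 4.96 and 4.60 in V5, 6.04 and 5.33 in GFP, 3.83 and 3.55 in IgG and 8.57 and 9.18 in input. The methyltransferase genes listed as Ftsj2 (-0.46 and -0.76) and Rnmtl1 (-0.37 and -0.68) were lower. The 17 tRNA synthetase and charging genes gave 1 higher and 8 lower with V5 (median -0.27) and 2 higher and 10 lower with GFP (median -0.44). Nars2, which charges tRNA with asparagine, gave 0.534 and 0.526 on the V5 arrays, 0.721 and 0.671 on the GFP arrays, 0.385 and 0.366 on the IgG arrays and 0.362 and 0.359 on the input arrays. It stood above both controls with both antibodies, higher than IgG by 0.50 ± 0.07 (adjusted p = 0.00305) and 0.89 ± 0.07 (adjusted p = 0.00018). Over all genes 40.3% were called lower with V5 and 52.1% with GFP. The share was 36.4% and 72.7% for the translation factors, 50% and 72.2% for the assembly factors, and 47.1% and 58.8% for the synthetase genes. As for the Mrpl and Mrps genes, the calls of lower depend on the scale and need not lie below the median of all genes. The spike-in scale moves that median above 0.

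The 80 cytosolic ribosomal protein genes and the 78 measured nuclear genes of oxidative phosphorylation, whose products assemble with those of the mitochondrial ribosome, were read in the same way, beside 40.3% (V5) and 52.1% (GFP) of all genes called lower. Against IgG the cytosolic set had 2 higher and 44 lower (55%) with V5 (median -0.25) and 3 higher and 64 lower (80%) with GFP (median -0.40). The oxidative phosphorylation set had 5 higher and 41 lower (52.6%) with V5 (median -0.29), and 5 higher and 62 lower (79.5%) with GFP (median -0.47). No test was made between these sets and the 75 genes.

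The authors' deposited table holds their own means of V5, GFP and input for 72 of the 75 genes. From the authors' deposited table the median log2 ratio was 0.12 for V5 over input, -0.02 for GFP over input and 0.13 for V5 over GFP. The sign in the authors' deposited table was that of the fold change above for 50 of 72 genes in V5 over input, 62 in GFP over input and 70 in V5 over GFP.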

How the data were processed

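RNA of 8 mouse testis samples in 4 groups of 2 was measured on one-colour Agilent arrays. Per the file headers, Feature Extraction 9.1.3.1 made the deposited intensity values; they are corrected for background and for trends across an array and not scaled between arrays. A separate deposited table has group means of signal, which the authors scaled by the median according to its comment lines; its 6 other value columns were not used.

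Here log2 of the processed signal minus that of the array's 75th percentile was taken, outlier spots were left out and spots of a probe averaged. A probe was used if some group had it well above background on its 2 arrays (25653 of 41174 probes), and each of the 17611 genes was read from its brightest such probe. Of the 75 genes 73 matched RefSeq by accession. Group means were fitted with limma 3.58.1 in R 4.3.3 (degrees of freedom 4 residual, 2.41 prior). The 6 comparisons had two-sided tests with Benjamini-Hochberg adjustment at 0.05 over all genes. Every adjusted p is limma's. The number of arrays limits the precision. The procedure was tested on simulated data. A probe-level fit adjusted over all kept probes gave the values of single probes.

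The members and lists were chosen with earlier results of these data known. Named genes are the 5 highest and 5 lowest called members of each comparison whose arrays do not overlap, genes named for their role, place or input signal, those with probes called in opposite directions, up to 3 genes of each other list with the smallest p, and Dazl. The synthetase names Hars2 and Vars2 were left out, since their accessions belong to Dtd1 and Vars.

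Alternatives tried were normexp background correction (offset 50), quantile normalization, spike-in scaling, no filter on dim probes, the mean of a gene's probes, the replicate number or the slide as a block, fits of only the 2 groups compared, each array left out in turn, the 2 arrays with conflicting labels left out, the authors' group means, and subunits by structure.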

Additional observations from a re-analysis of the deposited data

Results flagged for a closer look

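In 6 genes the difference from IgG itself differed between the 2 antibodies, by limma's test of V5 against GFP at an adjusted p under 0.05. The difference (V5 minus GFP, log2) was -0.48 for Mrps14, -0.41 for Mrpl44 and -0.29 for Mrpl3, which were above IgG with both antibodies, and 0.31 for Mrps28, 0.29 for Mrpl39 and 0.29 for Mrpl41. All 6 lie within 1 slide. Each call was lost when any one of the V5, GFP or input arrays was left out, and stood without either IgG array. All 6 were also lost by limma with no filter on dim probes, with only the arrays of the 2 groups, with normexp, and in the fit with replicate numbers described below. On the spike-in scale the first 3 were still called, at -0.60, -0.53 and -0.41, and the last 3 were not, at 0.20, 0.17 and 0.17. The 4 probes of Mrpl3 were at -0.47 to -0.29 and the 3 of Mrpl44 at -0.51 to -0.41 in V5 against GFP, 1 of the 3 not called.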

How the results depend on the processing

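Results are counts of the 75 genes called higher and lower. With 2 arrays a group, the counts changed with most choices, and the cause was not tested. On the spike-in scale V5 against IgG gave 26 and 0, GFP against IgG 27 and 0, IgG against input 1 and 68, V5 against input 2 and 61, GFP against input 4 and 56 and V5 against GFP 0 and 4, with reversed medians of 0.20 and 0.16 against IgG and reversed values of Mrpl12 (-0.0095) and Mrpl55 (-0.085) in IgG against input and of Mrpl12 (-0.015) in V5 against input. With normexp the counts were 0 and 0 for V5 against IgG (13 of 75 at an unadjusted p under 0.05), 6 and 3 for GFP against IgG, 5 and 17 for IgG against input, 2 and 20 for V5 against input, 3 and 24 for GFP against input and 0 and 0 for V5 against GFP (1 unadjusted). Of all 17611 genes, spike-in scaling called 7021, 8909, 13297, 13124, 13341 and 2153 in the order of comparisons above. Normexp called 0, 3220, 6266, 5251, 5693 and 0. V5 against GFP gave 0 and 0 with no filter (22 unadjusted), with only the 2 groups' arrays (34) and with the replicate block (25). These fits called only 4, 2 and 2 of all genes. Quantile normalization gave 5 higher and 3 lower, where 2969 of all genes were called. The reported fit had 27 unadjusted. Without the 2 arrays of conflicting label the median of the 75 genes in V5 against GFP was 0.12. In V5 against IgG 19 genes were lower with no filter, where 8271 of all 27962 genes were called in either direction. With only the 2 groups' arrays 14 were lower, where 7350 of all 17611 genes were called. Without the 2 arrays of conflicting label fewer genes were called in V5 against IgG, V5 against input and GFP against input. This held among the 75 genes and among all genes. The medians of the 75 genes there were -0.19, -0.12 and -0.26, beside -0.20, 0.01 and -0.04 for all genes. Over the 8 fits that left out 1 array, V5 against IgG gave 5 to 11 higher and 10 to 28 lower, GFP against IgG 8 to 10 and 39 to 47, IgG against input 14 to 18 and 21 to 26, V5 against input 9 to 14 and 24 to 33, GFP against input 8 to 15 and 33 to 45, and V5 against GFP 0 to 13 and 0 to 5, where a lone array is assumed to vary like the other groups. With the mean of a gene's probes Mrps2 in GFP against input reversed to -0.45, and with the authors' deposited group means the median of V5 against input reversed to 0.12. Same-numbered arrays of 2 groups correlated between -0.08 and 0.11 in their deviations. No pairing by number showed, but noise between arrays could hide it, so whether the numbers pair the samples is unknown. With the replicate block, V5 against IgG gave 8 and 30, GFP against IgG 11 and 45, IgG against input 17 and 25, V5 against input 13 and 29, and GFP against input 13 and 43. Of all genes the replicate block called 9567, 12815, 12762, 12727 and 13147 in that order. The slide as a block could be fitted only within a slide. There it gave 16 and 26 for IgG against input and 3 and 3 for V5 against GFP, the counts of the reported fit. Each group lay whole on 1 slide, so this outcome was fixed in advance and is no check.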
